A study of Mus musculus with 10 samples.

Results

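Hybrids from R26Y recipients, on 2 arrays, were compared with pooled unfused graft cells, on 2 arrays. These are 4 of the 10 arrays in the series, and they were chosen by their labels, not by any measured value. The labels describe haematopoietic stem and progenitor cells (HSPCs), prepared as lineage-negative cells of donor bone marrow, that were placed unilaterally above the substantia nigra of mice treated with MPTP, a toxin of dopamine neurons. The graft was given 3 days after the last MPTP dose, and cells were collected for sorting 1 week later. R26Y recipients carried a reporter of yellow fluorescent protein (YFP) that Cre recombinase switches on, and their graft carried Cre and red fluorescent protein (RFP). A red and yellow cell (RFP+YFP+) is therefore a graft cell that fused with a recipient cell, called a hybrid. The unfused group held red-only cells (RFP+) pooled from R26Y and GFAP-Cre recipients. In GFAP-Cre recipients the arrangement was reversed: the graft carried the R26Y reporter, and Cre came from recipient cells with an active Gfap promoter. Red-only cells from those mice can hence include graft cells that fused with recipient cells lacking Cre. All 4 arrays came from MPTP-treated, grafted mice, so the comparison holds no untreated or ungrafted cells. Each replicate pooled samples from 2 mice, and the ages of the mice are not given in the labels.

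Bone marrow progenitors give rise to neutrophils, monocytes, red cells and lymphocytes, and each lineage is known by its own set of transcripts. Neutrophil precursors make granule proteins in a fixed order, the primary granule proteases first and the later granule proteins afterwards. Microglia, the resident macrophages of the brain, express surface receptors such as P2ry12 and Cx3cr1 at rest and turn on Trem2, Apoe and lysosomal genes when they take up debris. A hybrid of a graft cell and a brain cell can in principle carry transcripts of both parents. The question the comparison puts is which transcripts differ between graft cells that fused and graft cells that did not.

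RNA of the sorted cells was amplified as a whole transcriptome and hybridised to 1-colour Agilent arrays. Spots well above background, a mark that the scanner software gives each spot, made up 84.1% on the array of hybrid replicate 1 and 64.3% on that of hybrid replicate 2. On the unfused arrays they made up 82.8% for replicate 1 and 86.7% for replicate 2. The median processed signal was 33.2 intensity units on the array of hybrid replicate 2 against 85.8 to 120 on the other 3 arrays. All 4 arrays were on 1 slide that was scanned as 1 batch, and no spot was saturated. Levels below are log2 scaled signals: each array's 75th percentile, taken on the log2 scale over spots detected throughout the series, was set to 0, so a negative level lies under that percentile. A probe binds with its own strength, so a level is compared between arrays and never between genes. After the filter on dim probes, 32198 genes or unnamed transcripts were tested, and 31197 of them were well above background on at least 2 of the 4 arrays. Detection by this mark is not proof of a transcript: 639 of 1101 olfactory receptor genes (58%) and 159 of 257 vomeronasal receptor genes (61.9%), families of the sensory epithelium of the nose, were well above background on all 4 arrays, against 23971 of all 35042 genes with a probe (68.4%). Labelling started from double-stranded cDNA, so signal from a gene and from an antisense partner cannot be told apart.

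Hybrid replicate 1 resembled the unfused arrays, and hybrid replicate 2 stood apart from all 3. Across the 32198 genes, Spearman's rho was 0.948 between hybrid replicate 1 and unfused replicate 1, and 0.969 between hybrid replicate 1 and unfused replicate 2. The unfused replicates reached 0.951 with each other. Hybrid replicate 2 reached 0.687 and 0.693 with the unfused replicates and 0.678 with its own group partner. The gap was not limited to dim genes: on the 23654 genes well above background on all 4 arrays, hybrid replicate 2 gave 0.684 with hybrid replicate 1 and 0.691 and 0.70 with the unfused arrays, while the other pairs gave 0.955 to 0.973. These correlations are over genes of the same arrays, which are not independent replicates, and no test was made of them.

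**Figure D1:**
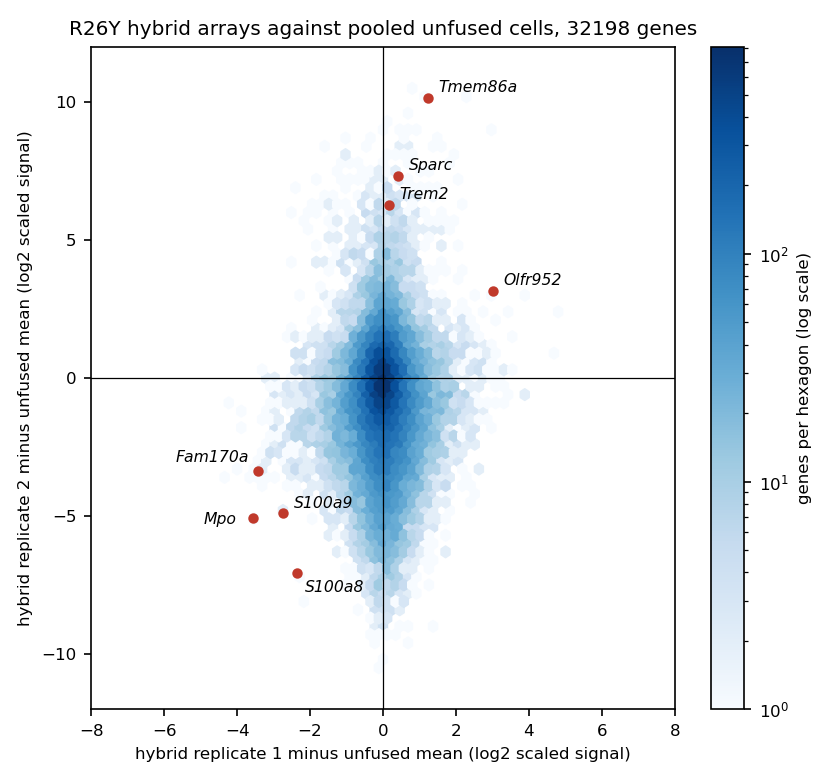
Each hexagon counts genes by the difference of hybrid replicate 1 (horizontal axis) and hybrid replicate 2 (vertical axis) from the unfused mean, in log2 scaled signal, over 32198 genes; red points are named genes. The cloud is tall and narrow, with 90% of genes between -0.90 and 0.96 on the horizontal axis and between -4.43 and 1.98 on the vertical axis.

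The difference of hybrid replicate 1 from the unfused mean had a median of 0.02 over all genes, with 90% of genes between -0.90 and 0.96. Between the unfused replicates, where 1 array is set against 1 and not against a mean of 2, 90% of genes lay between -1.20 and 1.17. For hybrid replicate 2 the median was -0.53 and 90% of genes lay between -4.43 and 1.98. More than 2-fold from the unfused mean were 1469 genes on the higher side and 1289 on the lower side in replicate 1, and 4127 and 12203 in replicate 2. More than 16-fold were 2 and 2 genes in replicate 1, and 458 and 2126 in replicate 2. Only 225 genes (0.699%) were over 2-fold above the unfused mean on both hybrid arrays, 707 (2.2%) were over 2-fold below it on both, and 808 were over 2-fold away in opposite directions. The signs of both differences were shared by 16055 genes (49.9%), and Spearman's rho between them was 0.00175, although both were taken from the same unfused mean.

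The share of genes on each side depended on how arrays were scaled to each other, and hybrid replicate 2 was the dimmest of the 4. Groups without overlap were counted: both hybrid arrays lay above both unfused arrays for 3399 genes (10.6%) and below both for 6300 (19.6%). With normexp background correction these counts were 5043 and 4349, with the 75th percentile over all spots 4691 and 4629, with that over spots detected on the slide 4236 and 5403, with quantile normalization 4853 and 4804, and with the matrix of log2 values deposited by the authors 5275 and 4979. The median difference of all genes was -0.26, and it lay between -0.07 and 0.08 under the 5 other scalings. For several gene groups the range over the 6 scalings is given below, relative to the median of all genes. Counts of list genes without overlap are under the scaling by spots detected throughout the series unless stated, and they too changed with the scaling.

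**Figure D2:**
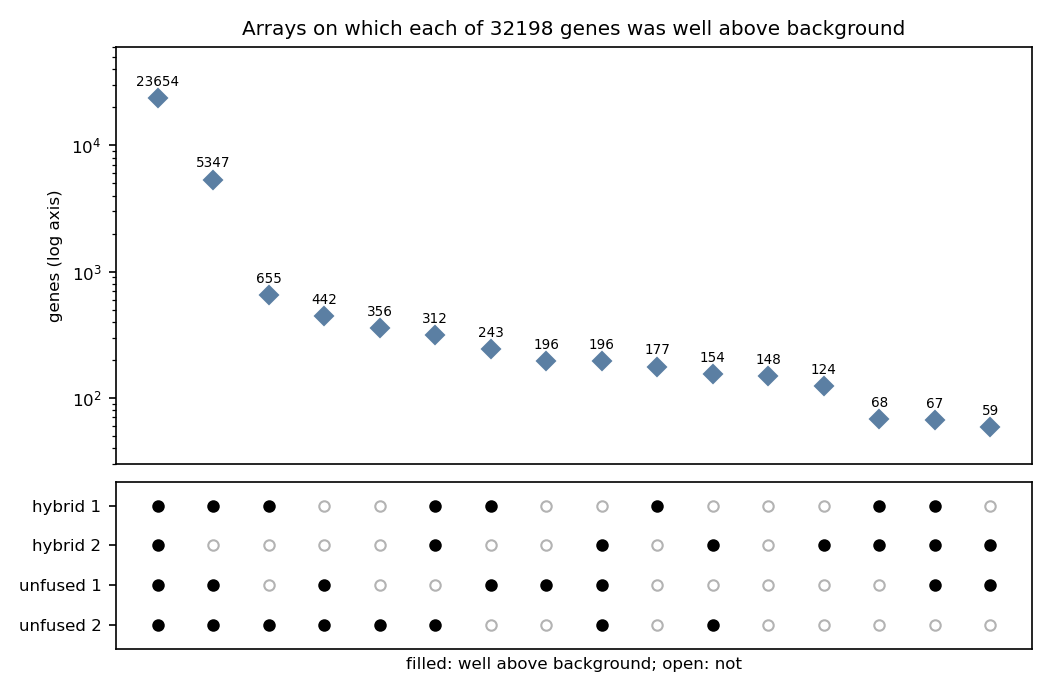
Diamonds give the number of genes (vertical log axis) in each pattern of detection over the 4 arrays, and filled circles below mark the arrays on which those genes were well above background. After the 23654 genes detected everywhere, the next pattern is the 5347 genes missing only on the array of hybrid replicate 2.

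Detection followed the same division. Of the 32198 genes, 23654 were well above background on all 4 arrays, and 5347 were so on all but the array of hybrid replicate 2. Detected on both hybrid arrays and on no unfused array were 68 genes (0.211%), and on both unfused arrays and no hybrid array 442 (1.37%). By a laxer mark, a signal positive and significant against background, those counts were 10 and 40.

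For genes detected on 1 side only, the fold is a lower bound, since the dim group has no measured level. The largest bounds on the hybrid side belonged to Tmem86a, an enzyme gene of plasmalogen breakdown, at least 44.5-fold higher in hybrids, and Pip4p1, a phosphoinositide phosphatase gene, at least 35.8-fold higher. Tmem86a lay at -6.29 in hybrid replicate 1 and 2.62 in replicate 2, against -6.78 and -8.26 in the unfused replicates. Pip4p1 lay at -6.45 and 2.52, against -6.63 and -7.62. For both genes, replicate 1 was within 1 log2 unit of the nearer unfused array and replicate 2 was over 9 log2 units above that array. Rufy4, of an autophagy adaptor, and Mtmr1, of a myotubularin-family lipid phosphatase, were at least 35.6-fold and 28.7-fold higher. Rufy4 lay at -6.23 and 1.61 in hybrid replicates 1 and 2, against -9.20 and -8.03 in the unfused replicates. Mtmr1 lay at -5.57 and 0.33, against -7.48 and -9.62. In both genes replicate 1 was over 1 log2 unit above both unfused arrays, and replicate 2 was far above replicate 1. A second Mtmr1 probe showed no such rise in replicate 1, with -7.68 and -6.29 in hybrids against -7.54 and -7.36 in unfused cells. Abhd13, of a hydrolase family, lay at -6.86 and -3.10 in hybrids, the second far above the first, and at -8.20 and -7.46 in unfused cells, at least 4.94-fold higher.

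Fezf2, a transcription factor gene of cortical projection neurons, differed from these in that the hybrid replicates were within 1 log2 unit of each other. Both lay well above both unfused arrays. It lay at -5.06 and -5.89 in hybrids and at -8.98 and -8.96 in unfused cells, at least 3.98-fold higher. On the unfused side, Furin, of a proprotein convertase, was at least 5.53-fold lower in hybrids, with -7.41 and -7.02 in hybrids against -3.28 and -5.53. Rpn2, a subunit gene of the oligosaccharyltransferase, was at least 4.98-fold lower and Sharpin, of the linear ubiquitin ligase complex, at least 4.58-fold lower. Ifitm1, an interferon-induced membrane protein gene, lay at -8.13 and -8.03 in hybrids and -3.59 and -5.88 in unfused cells, at least 4.41-fold lower. Optn, of the autophagy receptor optineurin, and Atp5g3, of the membrane ring of ATP synthase, were at least 4.03-fold and 3.89-fold lower. For Furin, Ifitm1 and Atp5g3 unfused replicate 1 was over 2 log2 units brighter than unfused replicate 2.

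No gene passed the test of the comparison. In limma, fitted to the 5 group means over all 10 arrays with Benjamini-Hochberg adjustment, 0 of 32198 genes (0%) had an adjusted p below 0.05, and 446 (1.39%) had an unadjusted p below 0.05, 89 higher and 357 lower in hybrids. The smallest adjusted p was 1.00, so the genes named here and below did not pass. The median standard error of a difference was 0.80 on the log2 scale. The count depended on a single array: without hybrid replicate 1, 2315 genes were called (422 higher and 1893 lower), all resting on hybrid replicate 2, whose spread was taken from the other groups. Without hybrid replicate 2, 0 genes were called and 199 had an unadjusted p below 0.05.

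**Figure D3:**
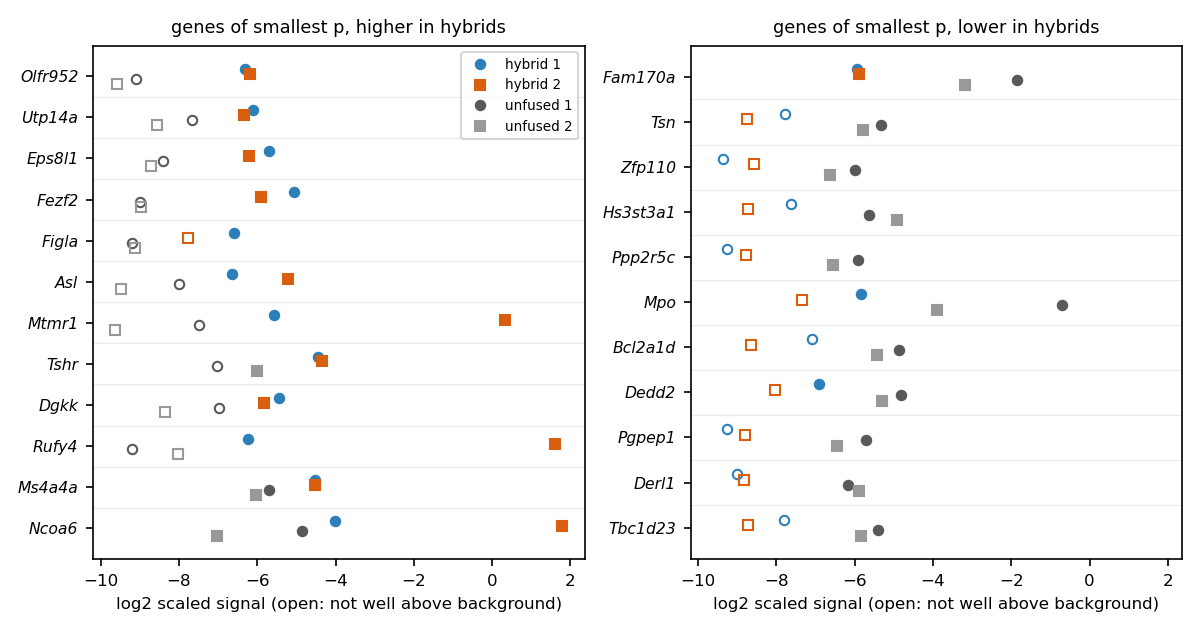
Levels (log2 scaled signal, horizontal axis) on each of the 4 arrays for genes of smallest p, 12 higher (left) and 11 lower (right) in hybrids; open symbols were not well above background. For Olfr952 the hybrid arrays lie at -6.31 and -6.19, and for Fam170a at -5.93 and -5.88. For Mtmr1, Rufy4 and Ncoa6 hybrid replicate 2 lies far above hybrid replicate 1.

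Among the 12 genes of smallest p on the higher side, the hybrid replicates agreed for some and not for others. Olfr952, an odorant receptor gene, lay at -6.31 and -6.19 in hybrids and at -9.09 and -9.57 in unfused cells, where it was not well above background. It was at least 2.33-fold higher (limma p 0.000705, adjusted p 1.00). Its probe lies at chr9:39234508-39234567 on mouse build mm9, and 51 of 56 aligned bases, 37 of them in a run, are shared with the probe of its neighbour Olfr955 at chr9:39278167-39278226, so the signal cannot be assigned to 1 of these genes. Both probes are shown because the shared run decides what can be said of this gene, with capitals for aligned bases that differ.
Olfr952: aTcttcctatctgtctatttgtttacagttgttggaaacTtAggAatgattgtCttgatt
Olfr955: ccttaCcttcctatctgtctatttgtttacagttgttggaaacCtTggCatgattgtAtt

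Utp14a, of a ribosome assembly factor, lay at -6.10 and -6.35 in hybrids and -7.67 and -8.56 in unfused cells, at least 2.37-fold higher. Its second probe did not follow, with -6.90 and -8.78 against -7.58 and -7.54. Eps8l1, of an actin-regulating adaptor, lay at -5.71 and -6.22 against -8.41 and -8.72, at least 2.84-fold higher. Dgkk, a diacylglycerol kinase gene, was at least 3.39-fold higher and Asl, of the urea cycle enzyme argininosuccinate lyase, at least 2.89-fold higher, neither being detected in unfused cells. Ms4a4a, a tetraspanning membrane protein gene of macrophages, was detected on all 4 arrays, at -4.52 on each hybrid array and -5.70 and -6.03 on the unfused arrays. Its log2 difference of 1.35 ± 0.46 (SE) had a limma p of 0.0201 before adjustment. None of the 12 passed, and Figla, an oocyte transcription factor gene, was well above background on the array of hybrid replicate 1 alone. Tshr, of the thyrotropin receptor, lay at -4.44 and -4.36 against -7.03, not detected, and -6.02, and its second probe gave the opposite sign. In Mtmr1, Rufy4 and the coactivator gene Ncoa6, hybrid replicate 2 lay over 5 log2 units above replicate 1. The second probe of Ncoa6 went the other way, with -3.41 and -6.81 in hybrids against -3.42 and -3.49 in unfused cells.

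On the lower side, 8 of the 11 genes given were not well above background on either hybrid array. Fam170a was detected on all 4 arrays, at -5.93 and -5.88 in hybrids and -1.86 and -3.18 in unfused cells. Its log2 difference was -3.39 ± 0.62 (SE; limma p 0.000647, adjusted p 1.00), and both of its probes had the same sign. Bcl2a1d, an anti-apoptotic Bcl2 family gene of myeloid cells, was at least 3.16-fold lower and Hs3st3a1, a heparan sulfate sulfotransferase gene, at least 3.02-fold lower. Tsn, of the nucleic acid binding protein translin, Tbc1d23, of a trans-Golgi tether, Derl1, of the degradation machinery of the endoplasmic reticulum, Pgpep1, a peptidase gene, Ppp2r5c, a regulatory subunit gene of protein phosphatase 2A, and the zinc finger gene Zfp110 had bounds from 1.47-fold to 2.49-fold. Dedd2, of a death effector domain protein, lay at -6.90 and -8.02 in hybrids and -4.82 and -5.29 in unfused cells. In each of the 11, both hybrid arrays lay below both unfused arrays, which the choice by p favours.

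Of all 32198 genes, 20657 were lower and 11538 higher in the hybrid mean. Below the unfused mean lay 15544 genes in hybrid replicate 1 and 21131 in replicate 2. Counts of lower and higher genes in the lists here and below are to be read beside these, since most genes were lower. The lists of neutrophil granule genes had medians below 0 on both hybrid arrays. Of 8 primary granule genes, 7 were lower in the hybrid mean, 0 passed, 5 had both hybrid arrays below both unfused arrays (19.6% of all genes) and 1 had both above (10.6% of all genes). Their median log2 difference was -1.32, against -0.26 for all genes, and it was -1.05 in hybrid replicate 1 and -1.76 in replicate 2. Of 18 later granule and surface genes, 14 were lower in the mean, 0 passed, 8 had no overlap on the lower side (19.6% of all genes) and 0 on the higher side. The median of the later genes was -0.93, made of -0.34 and -1.46, and 16 of 18 lay below the unfused mean in replicate 1 and 13 of 18 in replicate 2. Relative to all genes, the primary list lay between -1.06 and -0.46 over the 6 scalings and the later list between -0.67 and -0.21. The count of primary genes without overlap on the lower side was 2 of 8 with normexp and 3 with the authors' matrix. It was 4 with each of the other alternative scalings. For the later genes it was 6 of 18 with normexp, 7 with the authors' matrix and 8 with the others. In bulk RNA of sorted pools, fewer cells of a type and less RNA per cell cannot be told apart.

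**Figure D4:**
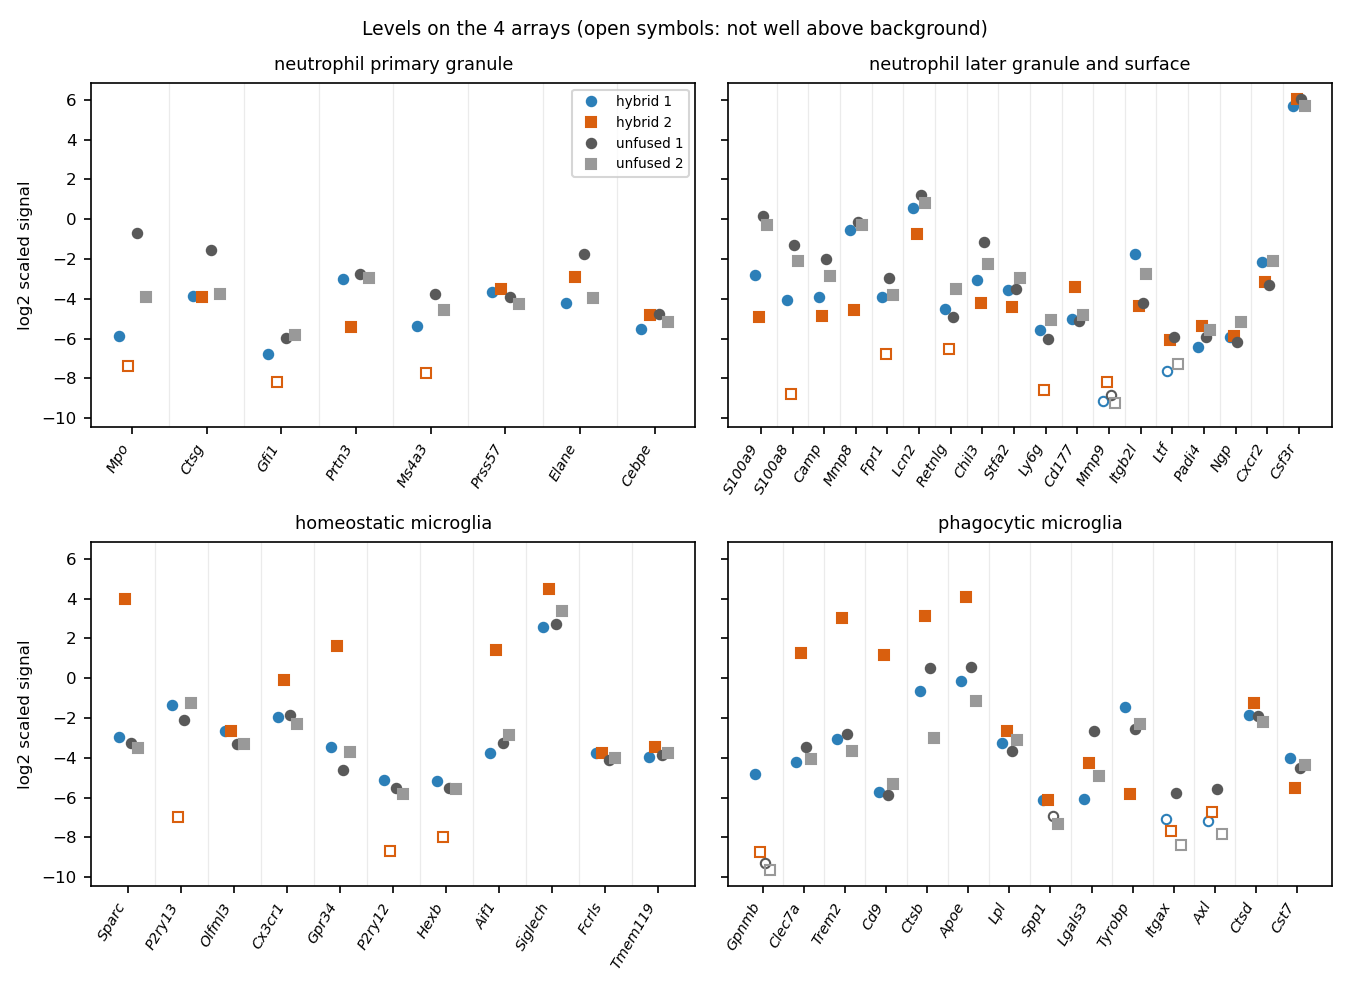
Levels (log2 scaled signal, vertical axis) of every tested member of 4 lists on the 4 arrays, ordered by p from left to right; open symbols were not well above background. Mpo, S100a9 and S100a8 lie lower on both hybrid arrays, while Sparc, Trem2, Clec7a and Cd9 are raised on the array of hybrid replicate 2 alone.

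Mpo, the myeloperoxidase of primary granules, lay at -5.85 and -7.35 in hybrids and at -0.70 and -3.89 in unfused cells. The value of hybrid replicate 2 was not well above background. The groups did not overlap, but the unfused replicates were over 3 log2 units apart. The means were -6.60 ± 1.06 (SD, n = 2) and -2.29 ± 2.26 (SD, n = 2), with a log2 difference of -4.31 ± 1.05 (SE; limma p 0.00364, adjusted p 1.00). This is the probe at chr11:87617840-87617899 (mm9). A second Mpo probe, at chr11:87615121-87615180, lay at -5.60 and -4.57 in hybrids and -6.01 and -5.38 in unfused cells, a difference of 0.61, so its probes gave opposite signs. Ctsg, of the granule protease cathepsin G, lay at -3.88 and -3.91 in hybrids and -1.53 and -3.77 in unfused cells. Elane, of neutrophil elastase, lay at -4.22 and -2.92 against -1.73 and -3.95. In both proteases unfused replicate 1 was the highest array, and unfused replicate 2 lay near or among the hybrid values. Without unfused replicate 1 the median of the primary list was -0.70, in place of -1.32, and it was -0.45 with the column of the slide as a covariate. Prtn3, of proteinase 3, lay at -3.03 and -5.41 against -2.73 and -2.94, and Gfi1, a transcriptional repressor gene of granulocytes, at -6.77 and -8.16, the latter not detected, against -5.99 and -5.82.

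S100a9 and S100a8 encode the subunits of calprotectin, the main cytosolic protein of neutrophils. S100a9 lay at -2.78 and -4.93 in hybrids and at 0.18 and -0.28 in unfused cells. The groups were separate by over 2 log2 units, with a log2 difference of -3.80 ± 1.33 (SE; limma p 0.0222, adjusted p 1.00). S100a8 lay at -4.06 and -8.78, the latter not detected, and at -1.30 and -2.10 in unfused cells. Camp, of the antimicrobial peptide cathelicidin, lay at -3.89 and -4.87 against -2.00 and -2.85, and both of its probes, which overlap on the genome, were lower. Mmp8, of neutrophil collagenase, lay at -0.56 and -4.57 against -0.15 and -0.29, and only replicate 2 was over 1 log2 unit from them. S100a9, S100a8 and Camp were thus the later genes in which each hybrid replicate lay over 1 log2 unit below the lower unfused replicate.

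The lists of microglial genes had medians above 0 on both hybrid arrays, with none of their genes passing. Of 11 homeostatic microglia genes, 8 were higher in the hybrid mean, 0 passed, and 4 had both hybrid arrays above both unfused arrays (10.6% of all genes) and 0 below. Their median log2 difference was 0.48, from 0.33 in replicate 1 and 0.67 in replicate 2, and lay 0.46 to 0.74 above the median of all genes over the 6 scalings. With the column of the slide as a covariate the median was -0.20, and without unfused replicate 1 it was 0.27. Of 14 phagocytic microglia genes, 9 were higher, 0 passed and 3 had no overlap on the higher side (10.6% of all genes), with a median of 0.75 in the mean, 0.15 in replicate 1 and 0.77 in replicate 2. The count without overlap was 2 of 14 with the 75th percentile over all spots, quantile normalization or the authors' matrix. The median lay 0.49 to 1.00 above that of all genes over the 6 scalings, and was 1.31 with the slide column as a covariate.

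Olfml3, of a secreted microglial protein, was the homeostatic gene with the closest replicates, at -2.66 and -2.63 in hybrids and -3.31 and -3.29 in unfused cells. Its groups did not overlap, with a log2 difference of 0.65 ± 0.46 (SE; limma p 0.194, adjusted p 1.00), while its second probe was higher in the mean with overlapping groups. Cx3cr1, the fractalkine receptor gene, lay at -1.93 and -0.10 against -1.86 and -2.31. That probe has a run of 20 bases in common with another gene's. P2ry13, a purinergic receptor gene, lay at -1.34 and -6.98, the latter not detected, against -2.11 and -1.23. Sparc, of a matrix-binding glycoprotein, lay at -2.95 and 3.96 against -3.26 and -3.49, while its second probe lay at -6.00 and -8.53 against -5.61 and -5.74, opposite in sign.

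Trem2, of the lipid-sensing receptor of phagocytic microglia, lay at -3.07 and 3.03 in hybrids and at -2.79 and -3.67 in unfused cells. Replicate 1 fell within the unfused values, and replicate 2 lay over 5 log2 units above them. Clec7a, of the receptor dectin 1, lay at -4.22 and 1.26 against -3.43 and -4.06. Cd9, a tetraspanin gene, lay at -5.73 and 1.18 against -5.85 and -5.32. Ctsb, of the lysosomal protease cathepsin B, lay at -0.64 and 3.15 against 0.52 and -3.03. In all 4 genes hybrid replicate 2 was the highest array, and replicate 1 lay within 1 log2 unit of an unfused array in Trem2, Clec7a and Cd9.

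Among 18 genes of lysosomal enzymes and membrane proteins, 13 were higher in hybrids, 0 passed, 5 had no overlap on the higher side (10.6% of all genes) and 1 on the lower side (19.6% of all genes). Their median was 0.44, from 0.18 and 0.64, and 0.27 without unfused replicate 1. Hexa, of a hexosaminidase subunit, lay at -5.00 and -5.55 against -6.30 and -5.75, and Npc2, of a cholesterol carrier, at -6.77 and -6.48 against -8.65, not detected, and -6.79. Cd63, of a late endosome tetraspanin, lay at -2.77 and 1.24 against -2.01 and -3.15. Psap, of the saposin precursor, lay on the lower side, at -6.90 and -7.90 against -6.13 and -6.55.

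Ptprc and Csf1r were detected on all 4 arrays. Ptprc, of the leukocyte surface phosphatase CD45, lay at -2.72 and -3.13 in hybrids and -2.78 and -3.06 in unfused cells, a log2 difference of -0.00 ± 0.51 (SE). Csf1r, of the receptor for macrophage colony stimulating factor, lay at 1.505 and 1.634 against 1.43 and 1.53. The signs of Ptprc and Csf1r changed with the scaling, and other probes of Csf1r were lower in hybrids. Of 15 monocyte and macrophage genes, 6 were higher and 9 lower, 0 passed, and the median was -0.31, up to 0.085 under another scaling. Fcgr1, a high-affinity Fc receptor gene, lay at -2.78 and -0.75 against -3.13 and -3.12. F13a1, of a coagulation factor made by monocytes, lay at -3.01 and -7.90, the latter not detected, against -2.03 and -2.39. Adgre1, a macrophage surface receptor gene, lay at -0.93 and -4.52 against -1.07 and -1.38, and Fcgr3, a low-affinity Fc receptor gene, at -3.26 and -3.92 against -2.86 and -3.09.

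The 14 tested genes of stem and progenitor cells were split, 7 higher and 7 lower, with a median of 0.00 and 0 passing. Kit, of the stem cell factor receptor, was detected on all 4 arrays, at -4.51 and -4.47 in hybrids and -4.09 and -4.33 in unfused cells. Its sign changed under 3 of the other scalings. Myb, a progenitor transcription factor gene, lay at -3.98 and -8.66, the latter not detected, against -3.27 and -4.25. Hoxa9, of a homeobox factor, lay at -3.13 and -4.29 against -2.48 and -3.19. Procr, of the protein C receptor, was not detected in hybrids and was at least 1.95-fold lower there.

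Of 15 B lineage genes, 11 were lower, 0 passed, 6 had no overlap on the lower side (19.6% of all genes) and 2 on the higher side (10.6% of all genes). The median was -1.02, from -0.11 in replicate 1 and -1.40 in replicate 2, and lay -0.76 to -0.26 from that of all genes over the 6 scalings. Ebf1, a B cell transcription factor gene, lay at -0.15 and -6.07 against -0.60 and 0.11, and Ms4a1, of the surface protein CD20, at -2.62 and -8.58 against -3.28 and -2.60. Cd79b, of a B cell receptor subunit, lay at -2.54 and -3.83 against -2.33 and -2.01. Il7r, of the interleukin 7 receptor, was not detected in hybrids and was at least 1.23-fold lower there. Of 9 MHC class II genes, which present antigen, 5 were lower, 0 passed, 2 had no overlap on the lower side (19.6% of all genes) and 1 on the higher side (10.6% of all genes). H2-Ab1 lay at -5.74 and -6.21 against -1.82 and -4.75, and H2-Aa at -5.45 and -6.86 against -5.03 and -4.50. Cd74, of the invariant chain, lay at -3.51 and -2.47 against -1.43 and -3.10, and H2-Oa at -5.22 and -5.31 against -3.69 and -5.27. For H2-Ab1, Cd74 and H2-Oa unfused replicate 1 was the highest array.

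Of 14 astrocyte genes, 10 were lower, 0 passed, 4 had no overlap on the lower side (19.6% of all genes) and 1 on the higher side (10.6% of all genes), with a median of -0.58 made of -0.05 and -1.24. Gfap, the astrocyte filament gene, lay at -3.79 and -5.11 in hybrids and at -2.55 and -2.79 in unfused cells. The groups were separate, with a log2 difference of -1.78 ± 0.70 (SE; limma p 0.0360, adjusted p 1.00), but its second detected probe lay at -4.30 and -4.27 against -5.18 and -4.56, a difference of 0.59. Fgfr3, of a fibroblast growth factor receptor, lay at -2.25 and -3.84 against -2.05 and -1.45, and its 3 probes were all lower. Slc1a2, of the glutamate transporter GLT-1, lay at 0.63 and -4.56 against 0.29 and -0.03.

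For the other brain lists the median was -0.05 over 14 neuron genes, -0.05 over 13 oligodendrocyte genes, -0.34 over 10 neural progenitor genes and -0.06 over 14 genes of endothelium and pericytes, with 0 passing in each. Under other scalings these medians reached 0.29, 0.28, 0.021 and 0.28. The 12 genes of dopamine synthesis, transport and breakdown had a median of -0.31, up to 0.11 under another scaling, with 8 lower and 0 passing. Th, of the enzyme that limits dopamine synthesis, lay at -0.37 and -0.80 in hybrids and -0.13 and -0.27 in unfused cells, a difference of -0.39 ± 0.57 (SE). Foxa2, a ventral midbrain transcription factor gene, lay at -4.53 and -3.57 against -4.55 and -3.56 on 1 probe, at chr2:147868669-147868728. The neighbouring probe at chr2:147868614-147868673 was detected on both unfused arrays, at -6.15 and -6.13, and on neither hybrid array, at -9.33 and -8.69. The probes overlap on the genome only at their ends and gave unlike results, so no direction is given for Foxa2.

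Wnt proteins are secreted signals that act through Frizzled and Lrp receptors and are held back by Dkk and Sfrp proteins. Of 17 Wnt ligand genes, 9 were higher and 8 lower, 0 passed, 6 had no overlap on the higher side (10.6% of all genes) and 3 on the lower side (19.6% of all genes). The median was 0.09, made of 0.12 and 0.07. The counts without overlap were 4 higher and 4 lower with the authors' matrix, where all genes gave 5275 and 4979. They were 4 and 3 with quantile normalization or the percentile over all spots. With the percentile of the slide they were 5 and 3, and with normexp 6 and 2. Wnt1, of the midbrain-hindbrain boundary, lay at -0.73 and 0.34 in hybrids and at -0.75 and -0.95 in unfused cells, with a difference of 0.65 ± 0.57 (SE). Its second probe differed by 0.09, at -1.53 and -1.08 against -1.38 and -1.41. Hybrid replicate 1 lay near the unfused values on the first probe and below them on the second, so the higher mean came from replicate 2. Wnt7a lay at -3.07 and -2.33 against -3.56 and -3.32, Wnt8a at -5.37 and -5.20 against -6.05 and -5.42, and Wnt8b at -3.51 and -4.11 against -2.26 and -3.24. Of 18 receptors and modulators, 14 were lower in the mean and 0 passed, with a median of 0.04 in replicate 1 and -1.89 in replicate 2, where 11 of the 18 were not detected. Sfrp1 lay at -5.41 and -4.77 against -6.62 and -5.86. Fzd3 lay at -4.64 and -8.70 against -3.62 and -5.03, Dkk2 at -4.72 and -8.09 against -4.57 and -4.18, and Dkk3 was not detected in hybrids and at least 1.07-fold lower. 

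**Figure D5:**
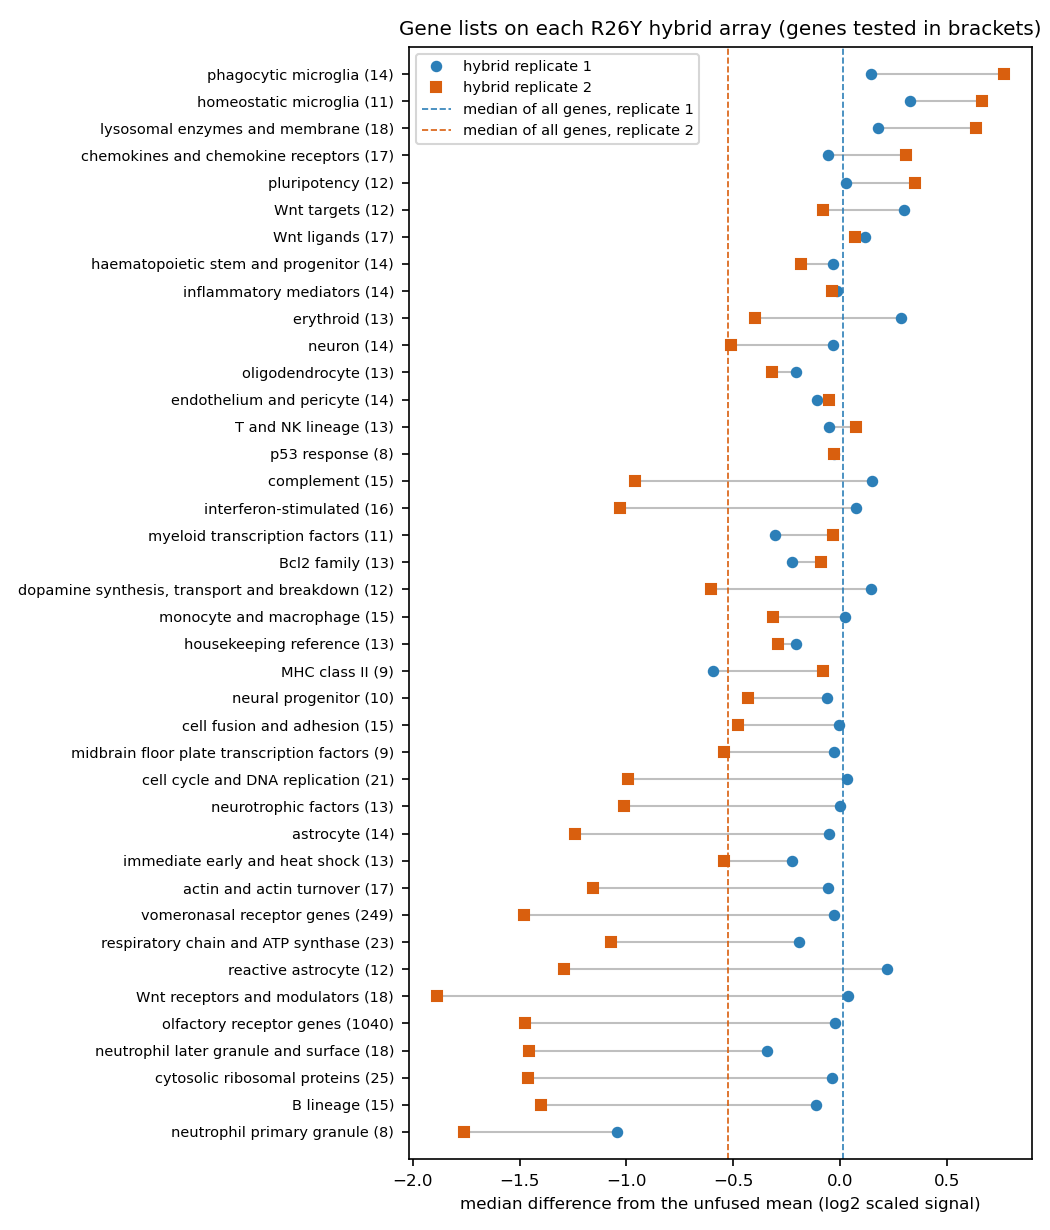
Median difference from the unfused mean (log2 scaled signal, horizontal axis) over the tested genes of each list, for hybrid replicate 1 (circles) and replicate 2 (squares); dashed lines mark the medians of all genes, 0.02 and -0.53. The primary granule list is at -1.05 and -1.76, and the other lists lie between -0.59 and 0.33 in replicate 1.

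Of 23 genes of the respiratory chain and ATP synthase, 16 were lower in hybrids, 0 passed, 9 had no overlap on the lower side (19.6% of all genes) and 0 on the higher side. Their median was -0.68, from -0.19 in replicate 1 and -1.07 in replicate 2, and lay -0.42 to -0.27 from the median of all genes over the 6 scalings. The counts without overlap were 5 lower and 2 higher with normexp, 6 and 2 with quantile normalization, and 5 and 1 with the authors' matrix. They were 7 and 1 with the percentile over all spots and 9 and 1 with that of the slide. Ndufs1, a complex I subunit gene, lay at -6.15 and -5.56 against -3.82 and -4.17, a difference of -1.86 ± 0.71 (SE; limma p 0.0317, adjusted p 1.00). Cox4i1, of cytochrome oxidase, lay at -4.43 and -5.09 against -2.62 and -4.25, and Ndufv1, also of complex I, was at least 2.22-fold lower. Of 25 cytosolic ribosomal protein genes, 20 were lower, 0 passed, 3 had no overlap on the lower side (19.6% of all genes) and 2 on the higher side (10.6% of all genes), with a median of -0.04 in replicate 1 and -1.46 in replicate 2. Relative to all genes the ribosomal list lay between -0.94 and -0.69 over the 6 scalings. Rpl3 lay at -0.37 and -6.43 against 0.26 and -0.71, Rplp0 at -1.06 and -5.76 against -1.13 and -0.87, and Rps24 at 1.97 and -1.32 against 2.21 and 1.82. Rps18 was not detected on the array of hybrid replicate 2. Probes of these 4 genes share 20 bases with probes of other genes, as ribosomal genes have many copies. The Rpl3 probe used is placed on chromosome 5. A second Rpl3 probe, on chromosome 15 and without such sharing, lay at -0.50 and -6.44 against -0.35 and -0.94.

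Of 21 cell cycle and DNA replication genes, 16 were lower, 0 passed, 7 had no overlap on the lower side (19.6% of all genes) and 1 on the higher side (10.6% of all genes), and the median was 0.03 in replicate 1 and -0.99 in replicate 2. Mcm4, of the replicative helicase, lay at -2.23 and -3.82 against -1.19 and -1.68, with a difference of -1.59 ± 0.63 (SE; limma p 0.0372, adjusted p 1.00). Top2a, of topoisomerase II, was not detected in hybrids and at least 1.84-fold lower, and Bub1, a spindle checkpoint kinase gene, lay at -5.55 and -8.35 against -5.01 and -5.35. Birc5, of survivin, lay at 0.17 and -8.16, the latter not detected, against 0.17 and 0.04. Of 13 reference genes, 6 were higher and 7 lower, 0 passed, 2 had no overlap on the higher side (10.6% of all genes) and 2 on the lower side (19.6% of all genes). Actb, of beta actin, lay at -0.18 and 2.05 against 0.44 and 0.10, and B2m, of the light chain of MHC class I, at -6.49 and -8.68 against -4.74 and -5.56. Hprt lay at -5.86 and 0.44 against -5.04 and -5.95, Gusb at -3.35 and 1.01 against -3.86 and -3.63, with a second probe of opposite sign, and Ywhaz at -1.77 and -2.56 against -1.39 and -1.74. Hybrid replicate 2 was over 4 log2 units from its partner for Hprt and Gusb.

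Of the other lists, 15 genes of cell fusion and adhesion had a median of -0.37, with 11 lower, 0 passing and 3 without overlap on the lower side (19.6% of all genes); under another scaling it was 0.0025. Their median was -0.00 in replicate 1 and -0.48 in replicate 2, near the medians of all genes. Lists with a lower median through replicate 2 were reactive astrocyte genes (0.22 in replicate 1 and -1.29 in replicate 2), actin turnover (-0.06 and -1.16), interferon-stimulated genes (0.08 and -1.03), neurotrophic factors (0.00 and -1.01) and complement (0.15 and -0.96). The medians of all genes were 0.02 and -0.53. In the hybrid mean, interferon-stimulated genes lay 0.0087 and complement 0.046 above the median of all genes, so neither list was lower than genes in general. Lists within 0.6 of 0 on both hybrid arrays were immediate early and heat shock genes, midbrain floor plate factors, the Bcl2 family, myeloid transcription factors, erythroid genes, T and NK cells, the p53 response, inflammatory mediators, Wnt targets, chemokines and pluripotency genes. Set against the median of all genes in the hybrid mean, chemokines lay 0.55, pluripotency genes 0.44 and Wnt targets 0.41 above it. Immediate early and heat shock genes lay at -0.37 from it, and the rest between -0.15 and 0.23. None of the genes of these lists passed. The 1040 olfactory receptor genes tested had a median of -0.02 in replicate 1 and -1.47 in replicate 2, and the 249 vomeronasal receptor genes -0.03 and -1.48, so families of the nose showed the lower level of replicate 2 as well.

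The widest gaps between the hybrid replicates were over 7 log2 units, among genes detected on both arrays. Replicate 2 was the brighter for L3mbtl3, of a chromatin reader, at -6.13 and 3.04, Bub1b, of a spindle checkpoint protein, at -5.70 and 3.28, Zdhhc21, of a palmitoyltransferase, at -6.30 and 2.24, and Phf8, of a histone demethylase, at -5.24 and 3.07. It was the dimmer for Efr3a, a plasma membrane scaffold gene, at 1.98 and -5.59, Tuba1b, of alpha tubulin, at 2.56 and -4.76, Cylc2, a sperm head gene, at 2.05 and -5.08, and Mfhas1 at 1.64 and -5.43. Klra9, a killer cell receptor gene, lay at 1.02 and -6.36, and Ppargc1a, of a coactivator of mitochondrial genes, at 0.97 and -6.16. In the unfused cells the last 6 genes lay between 0.77 and 2.43, and the first 4 between -7.32 and -4.29, in each case nearer hybrid replicate 1 than replicate 2. These are values of a single probe per gene, and other probes did not always follow. Other Phf8 probes lay at -6.09 and -8.70 and at -6.26 and -8.83 in hybrid replicates 1 and 2. The second probe of Zdhhc21 lay at -5.62 and -6.58, and that of Tuba1b at -3.70 and -3.51. For Ppargc1a the second probe was also dimmer in replicate 2, at -4.48 and -8.72.

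Whether a large difference held over the gene was checked on 4704 genes with at least 2 probes detected on all 4 arrays. These probes had no run of 20 bases in common with a probe of another gene. Probes of the same gene could overlap each other, so they were not always separate measurements. Where the brightest probe was over 2-fold from the unfused mean, the next brightest had the same sign for 94 of 126 genes (74.6%) in hybrid replicate 1 and 1152 of 1810 (63.6%) in hybrid replicate 2. It was also over 2-fold in that direction for 22 and 618 genes. Between the unfused replicates the same sign was seen for 167 of 237 genes (70.5%). Over all 4704 genes, Spearman's rho between the probes' differences was 0.210 in replicate 1 and 0.193 in replicate 2. Among the genes described above, those with probes that gave unlike differences included Mpo, Gfap, Foxa2, Sparc, Utp14a, Tshr and Ncoa6. They also included Gusb, Birc5, Slc1a2, Zdhhc21, Phf8 and Tuba1b. In others, such as Camp, Fgfr3 and Fam170a, all probes had the same sign. Not all of these genes were part of this check. The brighter Mpo probe and the second Foxa2 probe were not detected on all 4 arrays, so Mpo and Foxa2 were left out.

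GFAP-Cre hybrids, on 2 arrays of the same slide, were compared directly with R26Y hybrids, so that the unfused arrays they share cancel. In limma 0 of 32198 genes (0%) were called and 886 had an unadjusted p below 0.05, with a median of 0.29 over all genes. Without R26Y hybrid replicate 1, 2182 genes were called. Among the genes of smallest p, Bcl2a1d lay at -2.56 and -3.30 in GFAP-Cre hybrids, above both the R26Y hybrids and the unfused cells. Olfr11, another odorant receptor gene, lay at -5.40 and -5.12 against -8.01 and -8.37 in R26Y hybrids, and the zinc finger gene Zfp558 at -5.29 and -5.25 against -8.53 and -8.65. On the other side, Ldb2, of a LIM domain binding cofactor, lay at -5.59 and -6.52 against -3.93 and -2.22, and Hgsnat, a lysosomal acetyltransferase gene, at -6.82 and -7.38 against -3.45 and 2.16. Tmem52b lay at -8.16 and -9.34 against -4.99 and -6.02, and Rnf208, a ring finger gene, at -8.73 and -8.64 against -6.37 and -5.67. None of these genes passed, with an adjusted p of 1.00 each.

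Set beside the same unfused arrays, both hybrid types had low Mpo and S100a9. Mpo lay at -6.03 and -6.27 in GFAP-Cre hybrids and -5.85 and -7.35 in R26Y hybrids, and S100a9 at -0.94 and -4.00 against -2.78 and -4.93. The median of the primary granule list relative to the unfused mean was -0.15 in GFAP-Cre hybrids and -1.32 in R26Y hybrids, and that of the phagocytic microglia list 1.23 and 0.75. Both hybrid types use the same 2 unfused arrays as control, so these values are given side by side and are not independent.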

How the data were processed

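Each array has 1 scanner table deposited by the authors, whose processed signals are intensities with the background subtracted on that array alone; Agilent Feature Extraction 10.7.3.1 made it, with probes placed on mouse build mm9, per the file headers. The intensity values were not scaled across arrays before they were deposited by the authors. A matrix on a log2 scale was deposited by the authors too, and its normalisation is not given in the sources used here.

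Values were log2 processed signals minus the array's 75th percentile over the 9510 spots well above background on all 10 arrays. Non-uniform spots were dropped, spots of a probe averaged, and probes kept when 2 or more arrays were well above background; the probe of highest mean stood for its gene. A bound on a fold sets the dim group at the lowest signal among detected spots or its own, whichever is higher. Names were updated through RefSeq accessions (27428 of 55681 probes matched), and names resembling accessions or clones were not used. Tests used limma 3.58.1 in R 4.3.3, two-sided, over all 10 arrays, with FoxA2-Cre groups of a second slide adding to the estimate of spread (5 residual degrees of freedom), checked on simulated data.

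The members and 38 gene lists were chosen with earlier results of these data known, so no list gives independent support. Named were the 12 genes of smallest p per direction, the 6 largest bounds, up to 4 members per described list, 14 fixed genes and the widest replicate gaps; 3 genes of that rule are not reported here. Replicates are separate pools in the labels, and p-values measure only the spread between these samples. Replicate numbers did not pair samples: same-numbered R26Y hybrid and unfused arrays deviated with a correlation of -0.0468 across genes. Alternatives covered background, scaling, filters, probe choice, arrays, slide position, replicate block, weights and left-out replicates.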

Additional observations from a re-analysis of the deposited data

How the results depend on the processing

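The depth of hybrid replicate 2, with 64.3% of spots well above background, and 2 arrays a group limit every statement. Genes called were 0 under all 16 alternative settings of background, scaling, filter, probes, arrays, covariates and weights, with 109 (slide column) to 2997 (slide row) at an unadjusted p below 0.05 in limma. Leaving out 1 array at a time gave 0 to 2315 called genes for hybrids against unfused cells and 0 to 2182 for GFAP-Cre against R26Y hybrids, with 0 except without R26Y hybrid replicate 1. With the replicate number as a block, 0 genes were called (436 unadjusted). The counts detected in 1 group only fell to 10 and 40 with the positive-and-significant mark. The count of genes with both hybrid arrays above the unfused arrays was 5275 of 32198 with the authors' deposited matrix, in place of 3399. The count below them was 4187 of the 23934 genes with a probe detected on all 4 arrays. That set is smaller than the 32198 genes that gave 6300. These no-overlap alternatives were chosen after seeing the data.

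Signs that turned, on the log2 scale, were Psap with normexp (0.12); Ptprc (0.33) and Kit (0.049) with the percentile over all spots; Ptprc with that of the slide (0.18); Ptprc (0.32), Kit (0.15) and Csf1r (-0.37) with quantile normalization; and Fcgr3 (0.014), Ptprc (0.17), Kit (0.10) and Csf1r (-0.056) with the authors' matrix. Among genes detected on all 4 arrays, where another probe stands for the gene, Mpo was 0.61 and Birc5 1.58, and with no filter Ppp2r5c was 1.78 and Derl1 0.18. With the mean of probes Foxa2 was -1.43 and Csf1r -0.24. The slide row gave Ptprc 0.064, and the slide column gave Ctsg 0.0064, Foxa2 -0.075, Ptprc 0.28 and Csf1r -0.32. Apart from changes of probe, the cause was not tested.

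With 1 array left out, signs turned over these ranges, without R26Y hybrid replicate 2 unless stated: Adgre1 -3.30 to 0.29, P2ry13 -5.31 to 0.33, Clec7a -0.48 to 5.004, Cd9 -0.14 to 6.76, Ebf1 -5.83 to 0.094, Ms4a1 -5.64 to 0.32, Slc1a2 -4.69 to 0.50, Birc5 -8.27 to 0.065, Cd63 -0.19 to 3.82, Hprt -0.37 to 5.94, Actb -0.45 to 1.78, L3mbtl3 -1.13 to 8.04, Bub1b -0.053 to 8.92, Zdhhc21 -1.20 to 7.35, Klra9 -7.23 to 0.15, Tuba1b -6.95 to 0.38 and Ppargc1a -6.98 to 0.15. Tmem52b ranged from -0.036 to 0.99 (negative without R26Y hybrid replicate 1). Foxa2 (-0.49 to 0.50) and Ptprc (-0.20 to 0.20) turned without R26Y hybrid replicate 2 or unfused replicate 1. Cd74 (-1.56 to 0.11), H2-Oa (-1.57 to 0.012) and Elane (-1.84 to 0.39) turned without unfused replicate 1.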
